A study of Homo sapiens with 34 samples.

Results

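The peaks described here lie on chromosome 2 between 10900000 and 21000000 (hg38), the part of band 2p24 and its surroundings that holds MYCN, and were chosen by position alone. The 30 peak lists held 9193 such peaks of 2240368 in all. They fell into 2 sets that did not overlap in the input level beneath them. In a segment of 965.54 kb around MYCN, 610 peaks rose from an input level 48.0 to 140 times that of the rest of chromosome 2, while the other 8583 peaks rose from 0.656 to 3.73 times that level. NBAS and DDX1 lay outside this raised segment, MYCN, MYCNOS, MYCNUT and GACAT3 inside it, and CYRIA across its right edge.

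ChIP-seq had been performed on KELLY cells, an established MYCN-amplified human neuroblastoma line, which carried a doxycycline-inducible shRNA against the co-repressor RUNX1T1 in every group. Cells received DMSO or doxycycline for 72 h, and chromatin was precipitated for H3K4me1, H3K4me2, H3K4me3, H3K27ac or H3K27me3, with 3 libraries for each of the 5 marks and each treatment. The study set out to learn how loss of RUNX1T1 affects these marks. Nothing in the labels says that the 3 libraries of a group came from separate cultures, so p-values measure only the spread between these libraries, which may be technical. The hairpin acts on messenger RNA, so peak lists do not measure the knockdown. The doxycycline groups differ from the DMSO groups in drug and hairpin together, and no group used here received doxycycline without that hairpin.

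MYCN encodes N-Myc, a transcription factor that drives growth and protein synthesis in neural crest progenitors. In aggressive neuroblastoma the gene is often present in many extra copies, joined in arrays that carry a stretch of neighbouring DNA. In ChIP-seq, extra copies raise the reads of the precipitated and of the input (unenriched) chromatin alike. H3K4me3 marks active and poised promoters, H3K4me1 marks enhancers, H3K4me2 both, H3K27ac active elements, and H3K27me3 the domains silenced by Polycomb.

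At HAND2, GATA3, TH, DBH and ISL1, genes of the adrenergic neuroblastoma state, each promoter carried H3K4me3 and H3K27ac peaks in 6 of 6 libraries and H3K27me3 peaks in 0 of 6, counting peaks no more than 1 kb from any start site. Of 4 genes of other cell types, PTPRC (leukocytes) had none of these 3 marks and PECAM1 (endothelium) had H3K27me3 only, in 6 of 6 libraries. EPCAM (epithelium) and COL1A1 (fibroblasts) had H3K4me3 in 6 of 6 libraries, with H3K27ac in 6 and 4 and H3K27me3 in 6 and 5 of 6. Read totals used for calling were 57.1 to 85.2 M in the ChIP libraries. The input held 74.5 to 81.5 M reads in DMSO and 57.0 to 63.4 M in doxycycline.

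Stretches of reference DNA from places described below are printed first. They are the 250 bases before the MYCN start site (GRCh38.p14, RefSeq), and 300 bases about the H3K4me2 summit of 4 regions (hg38). The first pair were the H3K4me2 regions called most often in the raised segment, each in only 2 of 6 libraries. The second pair held H3K4me2 in every DMSO and no doxycycline library. Capitals in the MYCN line mark GGCGGGA, which resembles the site of E2F factors, and CACGTG, the E-box that N-Myc binds, on either strand. Capitals in the other lines mark CANNTG, the general E-box that also holds CACGTG, and AGATAA, which resembles the site of GATA factors, on either strand.
MYCN upstream, chr2:15940300-15940549, plus strand: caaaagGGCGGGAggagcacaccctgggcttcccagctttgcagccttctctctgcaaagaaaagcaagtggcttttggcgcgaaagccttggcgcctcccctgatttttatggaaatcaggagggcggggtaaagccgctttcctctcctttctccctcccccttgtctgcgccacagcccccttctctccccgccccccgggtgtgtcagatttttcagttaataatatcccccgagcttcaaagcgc
GACAT3 intron, raised segment, chr2:16037640-16037939, plus strand: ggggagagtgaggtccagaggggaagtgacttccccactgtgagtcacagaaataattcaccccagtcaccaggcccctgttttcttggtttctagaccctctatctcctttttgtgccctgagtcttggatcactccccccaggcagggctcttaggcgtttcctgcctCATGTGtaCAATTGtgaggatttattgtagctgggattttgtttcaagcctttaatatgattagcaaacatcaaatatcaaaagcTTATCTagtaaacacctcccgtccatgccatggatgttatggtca
lncRNA intron between MYCN and CYRIA, raised segment, chr2:16293295-16293594, plus strand: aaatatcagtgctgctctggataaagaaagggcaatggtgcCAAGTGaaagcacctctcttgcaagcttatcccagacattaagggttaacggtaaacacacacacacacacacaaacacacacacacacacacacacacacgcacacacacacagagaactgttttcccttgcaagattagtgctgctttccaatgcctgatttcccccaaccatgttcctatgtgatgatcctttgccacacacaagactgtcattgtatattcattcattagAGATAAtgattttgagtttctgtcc
LINC00276 intron, left flank, chr2:14313265-14313564, plus strand: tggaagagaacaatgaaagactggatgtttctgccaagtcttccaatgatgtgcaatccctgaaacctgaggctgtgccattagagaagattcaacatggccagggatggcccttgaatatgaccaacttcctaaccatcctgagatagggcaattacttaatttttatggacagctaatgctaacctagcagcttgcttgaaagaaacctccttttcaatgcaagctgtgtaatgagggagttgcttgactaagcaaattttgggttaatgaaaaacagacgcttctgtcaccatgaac
intergenic, right flank, chr2:17148723-17149022, plus strand: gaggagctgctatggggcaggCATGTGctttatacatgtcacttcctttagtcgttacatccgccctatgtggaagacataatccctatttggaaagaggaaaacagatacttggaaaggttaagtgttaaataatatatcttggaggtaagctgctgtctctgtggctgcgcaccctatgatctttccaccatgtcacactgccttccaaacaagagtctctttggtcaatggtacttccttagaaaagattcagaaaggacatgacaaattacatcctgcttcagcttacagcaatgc

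The MYCN line held 1 match to GGCGGGA, found in 13.5% of 35116 promoter windows of that length, and 0 matches to CACGTG, found in 6.34%. The GACAT3 line held 2 matches to CANNTG and 1 to AGATAA, and the line between MYCN and CYRIA held 1 of each. Of 6580 windows of 300 bases about the H3K4me2 summits of chromosome 2 in a DMSO library, 80.5% held CANNTG and 19.8% held AGATAA. The LINC00276 line held neither, and the intergenic line held 1 CANNTG. A match describes these letters only. In the raised segment the coverage was close to its largest possible value, so the summit there is the position the peak caller reported and not a sharp maximum.

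How far the raised level reached was asked next. The peak caller reports for each peak the pileup, the number of fragments over a base, and the fold enrichment, the ratio of the ChIP pileup to the local input level. The input level under a peak was taken back from these values as (pileup + 1) / fold enrichment - 1, an approximation where both are means over a peak, and divided by the median of the same list outside the window on chromosome 2. Going from left to right, the last peak of ordinary level ended at 15684581 and the first raised peak began at 15694036, a gap of 9.46 kb. The last raised peak ended at 16659575 and the next peak of ordinary level began at 16664217, a gap of 4.64 kb. Between those edges 0 peaks had an ordinary level. In bins of 50 kb the raised run was 15700001 to 16650000, a single run of 19 bins or 950 kb. The same run came out with thresholds of 2 and 5 in place of 3 times the rest of chromosome 2, with bins of 25 kb, and with pileup in place of the input level, and bins of 100 kb gave 900 kb.

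Of the 30 lists, 23 held a raised peak, and 12 held more than 10. The extent of the raised peaks was 965.54, 965 and 963 kb in the 3 H3K4me1 DMSO libraries and 777 kb in H3K4me1 doxycycline replicate 1. The shortest was 219 kb, in H3K27me3 doxycycline replicate 1, and the median of the 12 lists was 802 kb. The edges therefore rest on the H3K4me1 and H3K27ac lists of DMSO.

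**Figure D1:**
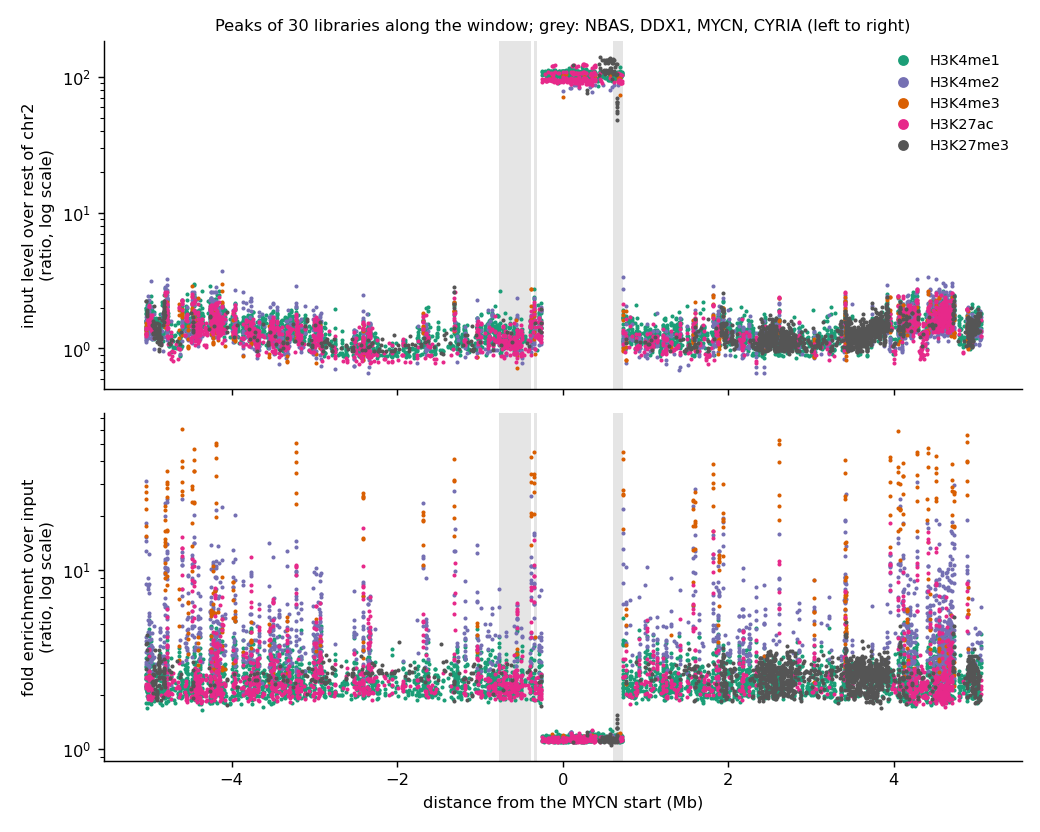
Each point is 1 peak of the 30 libraries, by its distance from the MYCN start (Mb) and, on log scales, its input level over the rest of chromosome 2 (top, ratio) and its fold enrichment over input (bottom, ratio), coloured by mark. The 610 raised peaks sit between 48.0 and 140 in the top panel and between 1.05 and 1.55 in the bottom panel, apart from the flanks.

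Pileup and fold enrichment went opposite ways in the segment. Raised peaks had a pileup of 253 to 1076 and a fold enrichment of 1.05 to 1.55 (median 1.13). Peaks of the flanks, the rest of the window, had a fold enrichment of 1.66 to 60.8 (median 2.61). The lowest fold enrichment of the flanks was above the highest of the segment. In 16 of 30 lists the highest pileup on chromosomes 1 to 22 and X lay in the window, and in 6 lists all of the top 20 lay in the raised segment. The −log10 q-value was under 3 for 58.4% of the raised and 46.7% of the flank peaks.

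The caller kept at most 2 reads per position and strand, which sets a ceiling on the pileup of 2 strands times 2 reads times the fragment length, scaled where the ChIP had more reads than the input. In the 20 libraries with raised peaks and fragment estimates of 214 to 280 bp, the median pileup of the raised peaks was 80.0 to 100% of this ceiling (median 98.0%). At the median input level under the raised peaks of a library, the ceiling allowed a fold enrichment of 1.12 to 1.41. Single peaks over a lower input level could exceed the value of their library. The medians measured in these libraries were 1.09 to 1.24. In 3 H3K27me3 libraries with estimates of 105 to 112 bp the pileup was 59.8 to 72.0% of the ceiling, and the median fold enrichment was 1.25 to 1.39. The input level under the raised peaks reached 67.3 to 92.1% of the like ceiling of the input in the 20 libraries, so the ratio of 48.0 to 140 is not a copy number.

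The flanks stood somewhat above the rest of the chromosome. Relative to the long arm of chromosome 2, the median input level under the peaks was 1.14 to 1.87 in the left flank (median of 30 libraries 1.5) and 1.18 to 1.86 in the right flank (1.58). It was above 1 in 30 of 30 libraries on either side. The 30 libraries share 4 inputs, so these are repeated readings of the same inputs and not independent ones. The rest of the short arm beyond the window stood at 1.06 to 1.44 (1.29), and its distal end at 1.02 to 1.46 (1.25).

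MYCN lies at 15940550 to 15947007 on the plus strand, wholly inside the raised segment, with 3 annotated start sites. H3K4me1 was called within 1 kb of them in 3 of 3 DMSO libraries, with pileups of 927, 996 and 903 and fold enrichments of 1.16, 1.11 and 1.11, and in 0 of 3 doxycycline libraries. H3K27ac was likewise called in 3 of 3 DMSO libraries, at pileups of 910, 1075 and 911 and fold enrichments of 1.17, 1.12 and 1.10, and in 0 of 3 doxycycline libraries. The −log10 q-values were low, at 4.26, 1.64 and 1.86 for H3K4me1 and 4.11, 2.1 and 1.07 for H3K27ac. H3K4me3 at MYCN was called in DMSO replicates 1 and 2 (pileups 876 and 1040, fold enrichments 1.18 and 1.19) and in doxycycline replicate 3 (860 and 1.18). H3K4me2 was called in DMSO replicate 3 only (852 and 1.18), and H3K27me3 in 0 of 6 libraries. The merged H3K4me3 region, 15942202 to 15945053, covered coding exon and overlapped an exon of MYCNOS, the antisense non-coding RNA of the locus. This region and the H3K4me2 peak, 15944096 to 15944450, began more than 1 kb inside the gene from its start at 15940550. Both were thus counted through another annotated start site, not the one below the printed upstream sequence.

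MYCN was the single gene, of 34 protein-coding genes of the window (2.94%), whose promoter held a mark in 3 of 3 libraries of a treatment and 0 of 3 of the other, in 2 marks. Over all 19970 protein-coding genes this state was found at 0.976% of promoters in at least 1 mark. A single gene is too few to read against that share, and its calls had a lowest −log10 q-value of 1.64 in H3K4me1 and 1.07 in H3K27ac. In these marks, the ratio of input to ChIP reads was 0.954 to 1.13 in DMSO and 0.758 to 0.875 in doxycycline. At the median input level under raised peaks, the ceiling allowed fold enrichments of 1.14 to 1.24 in DMSO and 1.12 to 1.17 in doxycycline. Single peaks over a lower input level exceeded this, at up to 1.29 in H3K4me1 DMSO replicate 1. Treatment therefore cannot be told apart from read ratio, or from the input library, at MYCN.

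The non-coding genes beside MYCN showed pileups and fold enrichments of the same size. MYCNOS (15918350 to 15942249, minus strand) held H3K27ac in 2 of 3 DMSO libraries, H3K4me1 in 1 and H3K4me3 in 1, with pileups of 910 to 1075, and none of the 5 marks in doxycycline. MYCNUT (15920399 to 15936017, plus strand) held H3K4me1 in 2 DMSO libraries (931 and 985) and H3K27ac in 1 (864). GACAT3 (16013928 to 16087201, plus strand) held H3K4me1 in 3 of 3 DMSO libraries at a pileup of 948 ± 43.8 (SD, n = 3) and a fold enrichment of 1.14 ± 0.050, and in 0 of 3 doxycycline libraries. It held H3K27ac in 3 of 3 DMSO libraries (952 ± 99.3, fold enrichment 1.13 ± 0.051) and in doxycycline replicate 2 (927 and 1.14).

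CYRIA, which encodes an inhibitor of RAC1-driven actin remodelling, spans the right edge (16549459 to 16666331, minus strand), and 1 of its 5 start sites lies in the segment. Beyond the edge, its upstream promoter held H3K4me3 with fold enrichments like those of DDX1 and NBAS below, but H3K27ac pileups well under those of DDX1. H3K4me3 stood at 399 ± 94.0 in DMSO and 330 ± 86.4 in doxycycline (pileup, SD, n = 3), with fold enrichments of 37.7 ± 9.98 and 23.5 ± 5.84. H3K4me1 and H3K4me2 were called in 6 of 6 libraries. H3K27ac was called in 3 of 3 DMSO libraries (31.3 ± 5.06) and in 2 of 3 doxycycline libraries (39.7 and 25.1). H3K27me3 near a CYRIA start site came from raised peaks, in replicate 1 of each treatment, at pileups of 859 and 858 and fold enrichments of 1.12 and 1.13.

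DDX1, an RNA helicase gene often carried along with MYCN in amplified tumours, lies 59.7 kb to the left of the first raised peak (15591178 to 15634346, plus strand), and here it stood at an ordinary level. Its H3K4me3 pileup was 532 ± 109 in DMSO and 420 ± 129 in doxycycline (SD, n = 3), with fold enrichments of 28.3 ± 7.00 and 35.1 ± 9.33. H3K27ac stood at 148 ± 20.3 and 142 ± 43.7, with fold enrichments of 8.36 ± 1.55 and 11.1 ± 3.32. NBAS, which encodes a subunit of a Golgi-to-ER tethering complex, lies 133 kb to the left (15166916 to 15561340, minus strand). Its H3K4me3 pileup was 504 ± 111 and 413 ± 94.9, with fold enrichments of 32.0 ± 11.3 and 21.7 ± 8.55. Both genes held H3K4me1, H3K4me2, H3K4me3 and H3K27ac in 6 of 6 libraries and H3K27me3 in 0 of 6. The H3K4me3 pileups of DDX1 and NBAS were thus lower than that of the region inside MYCN, in the libraries in which it was called. Their fold enrichments were at least 13.7, against 1.19 or less in that region.

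**Figure D2:**
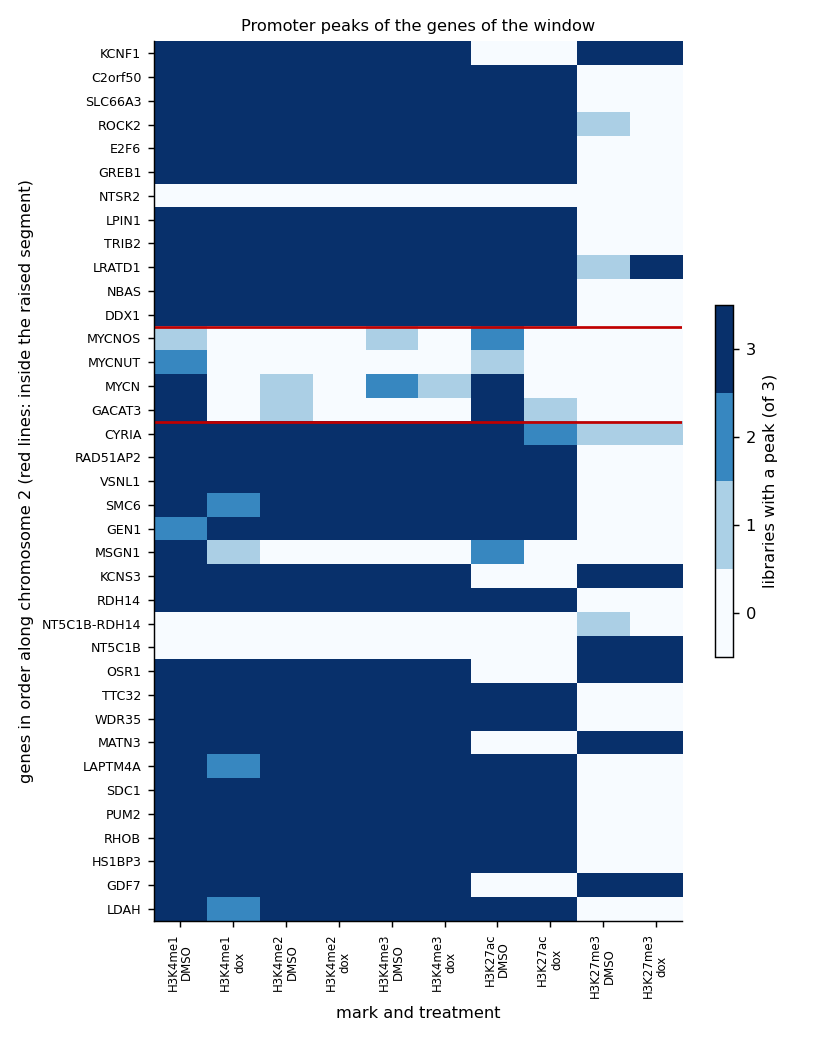
Rows are the 34 protein-coding genes of the window with MYCNOS, MYCNUT and GACAT3, in order along chromosome 2; columns are mark and treatment; shade gives the number of libraries (0 to 3) with a peak within 1 kb of a start site. The 4 genes between the red lines, inside the raised segment, have partly filled rows, while DDX1 and NBAS above them are filled for every mark except H3K27me3.

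Among the 34 protein-coding genes, promoters held H3K4me3 in all 6 libraries at 29 genes (85.3%), against 71.9% of all protein-coding genes. H3K4me2 was found in all 6 libraries at 29 genes (85.3%, against 71.8%), H3K4me1 at 25 (73.5%, against 61.4%) and H3K27ac at 23 (67.6%, against 64.2%). H3K27me3 was found in all 6 libraries at 6 genes (17.6%, against 20.1%). The shares were close to or somewhat above those of the genome.

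Active promoters of the flanks reached the highest H3K4me3 pileups at ROCK2, a kinase of the actin cytoskeleton, with 661 ± 105 in DMSO and 511 ± 117 in doxycycline, and at RHOB, a small GTPase, with 635 ± 117 and 509 ± 106 (SD, n = 3). LDAH, a lipid droplet hydrolase, stood at 588 ± 64.5 and 467 ± 81.1. LPIN1, a phosphatidate phosphatase, stood at 603 ± 117 and 449 ± 127. RDH14, a retinol dehydrogenase, stood at 596 ± 81.5 and 455 ± 132. In each of these genes doxycycline was lower in the mean, by less than 2 SD of the DMSO libraries, and doxycycline libraries were also called at a lower depth, so treatment and depth cannot be told apart here. Their fold enrichments did not share this direction, with ROCK2 at 41.7 ± 17.2 and 32.2 ± 7.21 and RHOB at 29.9 ± 5.41 and 34.9 ± 8.99. The promoter peak of SMC6 and GEN1, a pair of genome maintenance genes whose start sites lie together, was shared, at 587 ± 121 and 442 ± 109.

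The 6 genes with H3K27me3 in all 6 libraries were KCNF1, KCNS3, NT5C1B, OSR1, MATN3 and GDF7, named after their values were seen. KCNF1 and KCNS3 encode potassium channel subunits, OSR1 a developmental transcription factor, MATN3 a cartilage matrix protein and GDF7 a BMP-family ligand. All except NT5C1B, a nucleotidase gene, also held H3K4me1, H3K4me2 and H3K4me3 in 6 of 6 libraries and H3K27ac in 0 of 6. Bulk libraries do not tell whether these marks sat in the same cells. The H3K27me3 pileup was 50.5 ± 33.1 in DMSO and 43.5 ± 17.4 in doxycycline at GDF7, and 38.6 ± 24.7 and 35.6 ± 14.1 at OSR1 (SD, n = 3). These means pool libraries with fragment estimates of 105 to 280 bp, so mean and SD mix unlike scales. H3K4me3 at GDF7 stood at 325 ± 61.1 and 236 ± 58.0, below the active genes, and at OSR1 at 82.3 ± 19.9 and 67.0 ± 7.81. LRATD1 held H3K27me3 in 1 DMSO library (pileup 11.9) and in 3 of 3 doxycycline libraries (38.9, 27.7 and 18.6), with H3K27ac in all 6, at −log10 q-values of 5.25, 2.49 and 1.75 in doxycycline.

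H3K27me3 peaks of the flanks lay mostly to the right of MYCN. In the 3 DMSO libraries 149, 157 and 387 lay in the right and 18, 15 and 131 in the left flank, and in doxycycline 169, 155 and 308 against 15, 11 and 42. They covered 590, 173 and 238 kb on the right and 34.7, 14.2 and 52.5 kb on the left in DMSO, and 672, 546 and 219 kb against 33.5, 23.7 and 20.7 kb in doxycycline. The right flank was denser in 6 of 6 libraries. The widest H3K27me3 peak of the flanks, 39286 bp in DMSO replicate 1, lay at 20828938 to 20868223 over LINC02850, 5.81 kb from LDAH. In DMSO replicates 2 and 3 the widest covered OSR1, at 16371 and 14389 bp. The fragment estimates of H3K27me3 differed between libraries (105 to 112 bp in 3 of 6), and the covered length on the right was lowest in those libraries. Their part in the spread was not tested.

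**Figure D3:**
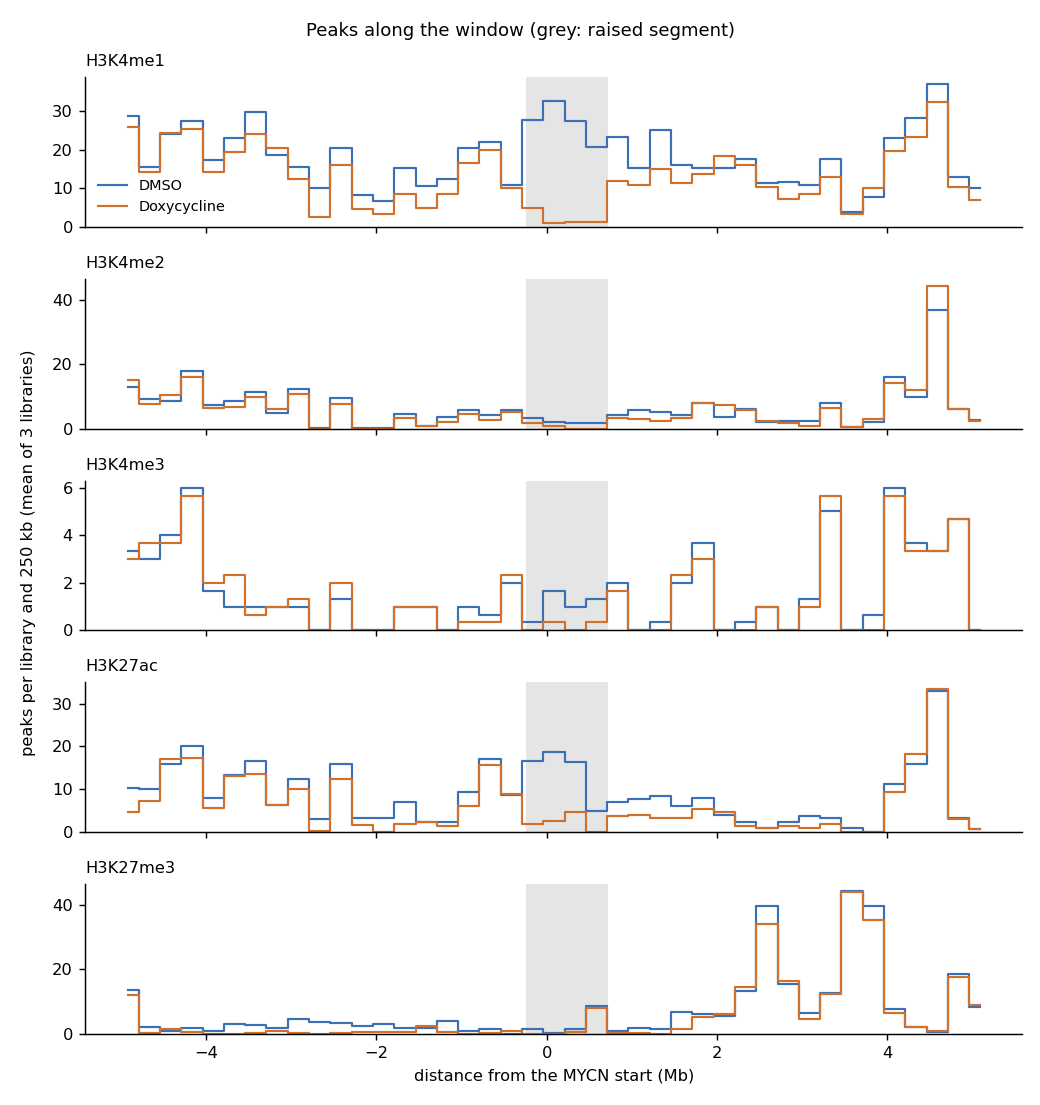
Mean number of peaks per library in 250 kb steps along the window (x axis, distance from the MYCN start in Mb), 1 panel per mark, DMSO in blue and doxycycline in orange, with the raised segment in grey. H3K4me1 and H3K27ac peaks fill the segment in DMSO and are few there in doxycycline, while H3K27me3 peaks collect to its right in either treatment.

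Peak number in the whole window was compared between treatments. H3K27ac lists held 419, 286 and 378 peaks in DMSO and 269, 229 and 254 in doxycycline, ranges that did not overlap. The difference of mean log2 number, doxycycline minus DMSO, was -0.51 (exact two-sided permutation p = 0.1, the smallest 3 against 3 libraries allow, adjusted by Benjamini-Hochberg over the 5 marks 0.5). H3K4me1 gave 853, 584 and 807 against 605, 425 and 552 peaks in the window, ranges that overlapped, a difference of -0.50 (exact permutation p = 0.2, adjusted 0.5). H3K4me2 gave 368, 215 and 210 against 334, 185 and 216, a difference of -0.10 (exact permutation p = 0.7, adjusted 0.8). For H3K4me3 there were 69, 77 and 56 against 66, 63 and 59, a difference of -0.09 (exact permutation p = 0.6, adjusted 0.8). The H3K27me3 counts were 193, 174 and 521 against 206, 167 and 353, a difference of -0.18 (exact permutation p = 0.8, adjusted 0.8). No mark could reach 0.05 by this test. In the flanks alone the differences were smaller, at -0.33 for H3K27ac and -0.29 for H3K4me1 (exact permutation p = 0.3 for either, unadjusted), and the H3K27ac ranges overlapped.

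Pileup was compared relative to the rest of the list's chromosome 2 peaks. The median relative pileup of H3K4me2 was lower in doxycycline without overlap of the ranges (log2 difference -0.14, exact permutation p = 0.1, adjusted 0.5). Those of H3K4me1, H3K27ac and H3K4me3 differed by -0.12, -0.16 and -0.33 and that of H3K27me3 by 0.059, with overlapping ranges (exact permutation p = 0.2, 0.3, 0.9 and 0.5, adjusted 0.5, 0.5, 0.9 and 0.625). The size depended on the raised peaks: as a mean weighted by peak length the differences were -2.23 for H3K4me1 and -1.39 for H3K27ac, and in the flanks alone the medians differed by -0.016 and -0.038. The H3K4me3 and H3K27ac differences also rested on single libraries, at -0.023 without DMSO replicate 2 and -0.83 without DMSO replicate 1 for H3K4me3, and at -0.059 without DMSO replicate 1 for H3K27ac. The median fold enrichment was higher in doxycycline without overlap for H3K4me1 (log2 difference 0.16), H3K4me2 (0.22) and H3K27ac (0.15), each at exact permutation p = 0.1, adjusted 0.167. The window median includes the raised peaks, whose fold enrichment is low and whose number was higher in DMSO. In the flanks alone the H3K4me1 difference was 0.11 (exact permutation p = 0.2, unadjusted), those of H3K4me2 and H3K27ac were 0.21 and 0.11 (exact permutation p = 0.1 for either, unadjusted). H3K4me3 differed by 0.38 and H3K27me3 by -0.026, with overlapping ranges (exact permutation p = 0.4 and 1, adjusted 0.5 and 1).

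The raised segment and the flanks were then counted apart. It held 540 raised peaks in DMSO and 70 in doxycycline over all marks. H3K4me1 gave 151, 88 and 78 raised peaks in DMSO and 12, 1 and 0 in doxycycline, while the flanks held 642 ± 127 and 523 ± 88.2 (SD, n = 3). H3K27ac gave 104, 41 and 18 against 1, 24 and 1 raised peaks, and 307 ± 58.0 against 242 ± 32.9 in the flanks. H3K4me2 gave 14, 0 and 2 against 3, 0 and 0, H3K4me3 2, 11 and 0 against 0, 0 and 2, and H3K27me3 26, 2 and 3 against 22, 1 and 3. In the flanks alone the ranges of the treatments overlapped for every mark, H3K27ac included (245 to 360 in DMSO, 205 to 268 in doxycycline). In the segment the H3K4me1 ranges did not overlap, those of H3K27ac overlapped through doxycycline replicate 2, and the other marks overlapped.

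In the run of raised bins, the difference of mean log2 (number + 1) was -5.06 for H3K4me1 (exact permutation p = 0.1, adjusted 0.5). With peaks of a −log10 q-value of at least 3 it was -3.17 (exact permutation p = 0.2, unadjusted), so the gap between the H3K4me1 ranges rests on weak peaks. It was -3.20 for H3K27ac (exact permutation p = 0.2, adjusted 0.5), -1.16 for H3K4me2 and -1.19 for H3K4me3 (exact permutation p = 0.7 for either, adjusted 0.8), and -0.27 for H3K27me3 (exact permutation p = 0.8, adjusted 0.8).

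**Figure D4:**
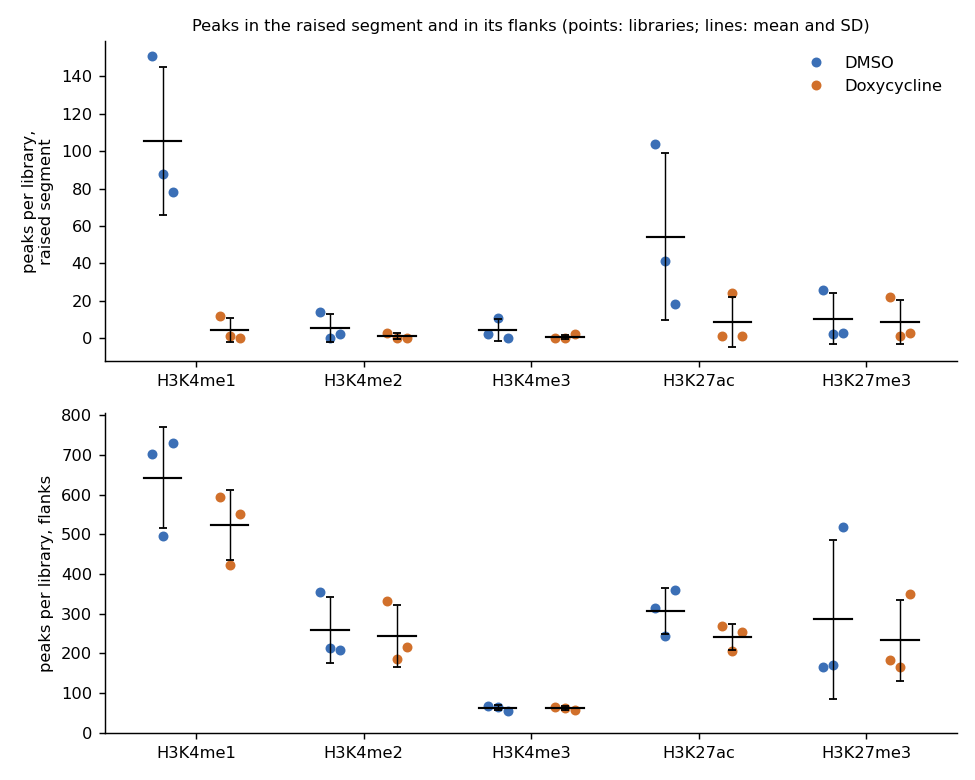
Peaks per library in the raised segment (top) and in its flanks (bottom), by mark; points are the 3 libraries of a treatment, lines the mean and SD. H3K4me1 in the segment stands at 151, 88 and 78 in DMSO and 12, 1 and 0 in doxycycline, while the flank ranges of the treatments overlap for every mark.

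Another quantity moved with these counts. Before calling, MACS2 brings ChIP and input to the read total of the shallower library, and the ratio of input to ChIP reads was 0.875 to 1.13 in DMSO and 0.750 to 1.11 in doxycycline. For H3K4me1 it was 1.12, 0.954 and 1.07 in DMSO and 0.875, 0.758 and 0.849 in doxycycline, and for H3K27ac 1.13, 0.971 and 1.05 against 0.853, 0.860 and 0.867. The 14 libraries under 0.95, of which 12 were doxycycline and 2 DMSO, held 45 raised peaks (median 1). The 16 libraries at or above 0.95, of which 13 were DMSO and 3 doxycycline, held 565 (median 16). For H3K4me1 and H3K27ac the ratio did not overlap between treatments, so treatment and read ratio cannot be told apart in the raised segment. Nor can treatment and input library, because the 4 inputs were split by treatment and reused over the marks. Inputs of replicates 1 and 3 had equal read totals in each treatment. Libraries that share an input are not independent, in the permutation tests and in the counts of regions alike.

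**Figure D5:**
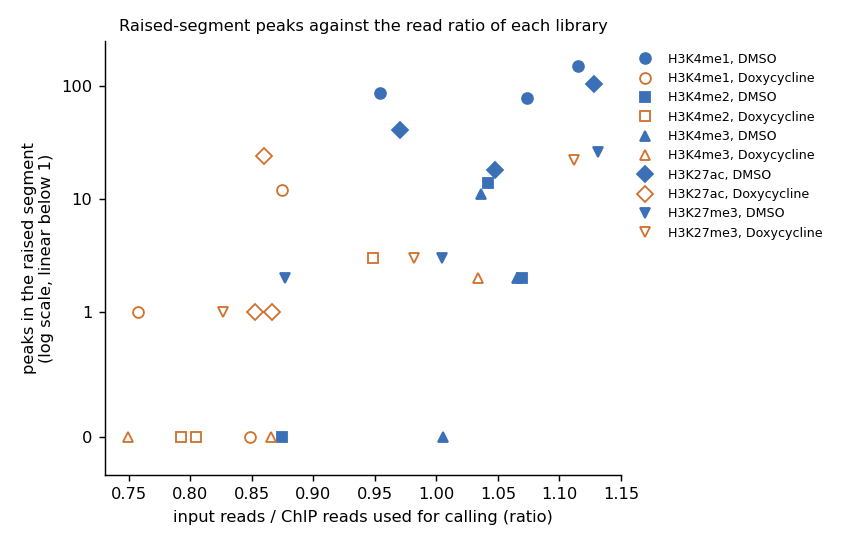
Each point is 1 of the 30 libraries, by the ratio of input to ChIP reads used for calling (x axis) and the number of peaks in the raised segment (y axis, log scale, linear below 1); shape gives the mark, filled blue DMSO and open orange doxycycline. Libraries under a ratio of 0.95 hold 45 peaks in all and those at or above it 565.

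Single regions were then examined, a region being the union of overlapping peaks of a mark over its 6 libraries. For H3K4me1, 51 of 152 regions of the segment (33.6%) had a peak in 3 of 3 DMSO and 0 of 3 doxycycline libraries, against 1.45% of regions over the genome, and 0 had the reverse, against 0.313%. In the flanks 18 of 955 H3K4me1 regions (1.88%) were found in DMSO alone and 5 (0.524%) in doxycycline alone. These calls were weak: in the strongest of the 51, in a CYRIA intron at 16652234 to 16659575, the lowest −log10 q-value of the 3 DMSO libraries was 2.72. The next were at 16425365 to 16427289, 16271315 to 16273508 and 16289515 to 16291142, in introns of non-coding genes, at 2.48, 2.46 and 2.42. With peaks of a −log10 q-value of at least 3, the count over the window fell from 74 to 4.

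H3K27ac had 3 of 104 segment regions in DMSO alone (2.88%), and 16 of 582 in the flanks (2.75%), against 2.70% of all regions. The doxycycline-only count was 0 in the segment and 3 in the flanks (0.515%), against 0.600%. These shares lay at the background. The 3 segment regions were at 16271395 to 16273474, at 15980677 to 15987717, and over MYCN and MYCNOS at 15939196 to 15946398, with lowest −log10 q-values of 1.63, 1.40 and 1.07. H3K4me2 had 2 regions in DMSO alone and 1 in doxycycline alone of 442 in the window, against 0.291% and 0.18%. H3K4me3 had 0 and 0 of 91, against 0.893% and 0.45%, and H3K27me3 had 0 and 2 of 587, against 0.0386% and 0.42%.

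The separating regions with the highest weakest −log10 q-values were of H3K4me2 and lay in the flanks. H3K4me2 was called in narrow mode, and H3K4me1, H3K27ac and H3K27me3 in broad mode. Their q-values are therefore not on a like scale, and this order does not rank the marks. The 2 seen in DMSO alone, with lowest −log10 q-values of 7.95 and 6.83, were also picked by H3K27ac. The 1 seen in doxycycline alone, in LPIN1, had a lowest −log10 q-value of 7.41. No H3K27ac region seen in doxycycline alone overlapped it. In an intron of the non-coding LINC00276, 319 kb from LRATD1, H3K4me2 at 14313082 to 14314008 had pileups of 57, 37.6 and 38 and fold enrichments of 4.63, 4.11 and 3.19 in DMSO, with no peak in doxycycline. H3K27ac overlapped it at 14312943 to 14314577, with pileups of 24.2, 24.6 and 23.8 in DMSO. Intergenic H3K4me2 at 17148297 to 17149331, 361 kb from RAD51AP2, had pileups of 42, 35.0 and 34 and fold enrichments of 4.84, 3.39 and 3.10. H3K27ac overlapped it at 17147669 to 17149558, with pileups of 29.6, 28.7 and 28.6. Their sequences stand among those printed above.

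Other H3K27ac regions seen in DMSO alone lay over a coding exon of MATN3 (20004827 to 20006133, pileups 30.2, 34.9 and 32.1) and an exon of the non-coding MIR3681HG (12082664 to 12084093, pileups 34.2, 30.6 and 30.4). In doxycycline alone, H3K4me2 lay over a coding exon of LPIN1 (11802153 to 11803840), with a mean pileup of 65.2 and a mean fold enrichment of 5.50. The 3 H3K27ac regions in doxycycline alone lay in introns of KCNS3, HS1BP3 and VSNL1, with mean pileups of 23.7, 24.8 and 21.5. The 2 H3K27me3 regions in doxycycline alone lay in a KCNS3 intron (18350759 to 18352909) and between genes near PUM2 (20237416 to 20238677).

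Within the segment, the regions called most often stood at a few places. No region of any mark was called in 6 of 6 libraries, and 77 of the 152 H3K4me1 and 70 of the 104 H3K27ac regions were called in 1 library. In GACAT3, H3K4me1 at 16033725 to 16041711 was called in 5 libraries, with pileups of 925, 967 and 854 in DMSO and 856 and 820 in doxycycline replicates 1 and 2, and fold enrichments of 1.24, 1.19, 1.17, 1.13 and 1.11. H3K27ac at 16033653 to 16038985 was also called in 5 libraries, at 879, 1009 and 860 in DMSO and 776 and 853 in doxycycline replicates 1 and 2. H3K4me2 at 16036971 to 16038968 was called in replicate 1 of each treatment (864 and 846, fold enrichments 1.22 and 1.24). The 3 marks thus shared this place. The ceiling on fold enrichment differs between these libraries, so its values are not compared between treatments.

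The second place lay 254 kb to the left of CYRIA, in an intron of a non-coding gene. Its H3K27ac and H3K4me1 regions also overlapped an exon of another non-coding gene. H3K27ac at 16293149 to 16295021 was called in 3 DMSO libraries (894, 1048 and 841, fold enrichments 1.27, 1.14 and 1.13) and in doxycycline replicates 2 and 3 (926 and 753, fold enrichments 1.16 and 1.12). H3K4me1 at 16292506 to 16294514 was called in 3 DMSO libraries (905, 986 and 879) and in doxycycline replicate 1 (860). H3K4me2 at 16293180 to 16294167 was called in DMSO replicates 1 and 3 (864 and 848). For H3K27me3 the most frequent region, 16597142 to 16598904 in a CYRIA intron, was called in 3 DMSO and 2 doxycycline libraries, with fold enrichments of 1.2, 1.31 and 1.55 in DMSO and 1.19 and 1.48 in doxycycline replicates 1 and 3.

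Overlap between marks was compared inside and outside the segment. Of the raised H3K27ac peaks, 91.3, 92.7 and 100% overlapped a raised H3K4me1 peak of the same replicate number in DMSO, and of the flank peaks 89.5, 90.6 and 68.3%. Of the raised H3K27me3 peaks, 3.85, 0 and 0% overlapped H3K27ac, against 0.599, 0.581 and 2.51% in the flanks. In doxycycline, 1 of 1, 4.17% of 24 and 0 of 1 raised H3K27ac peaks overlapped raised H3K4me1 peaks, of which there were 12, 1 and 0, and in the flanks 82.8, 82.9 and 76.3% did. Of the raised H3K27me3 peaks 0% overlapped H3K27ac in doxycycline, and of those of the flanks 1.63, 0 and 0.571%. Raised peaks share the same high input and the same input library, so their overlap is a description only.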

How the data were processed

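Peaks of 5 histone marks in KELLY cells given DMSO or doxycycline were analysed, 3 libraries per mark and treatment (30 lists). The labels name 34 samples, and the 4 inputs entered only through the calls. The authors aligned reads to hg38 with Bowtie2, kept alignments of mapping quality 30 or more and called each library with MACS2 2.1.1.20160309, per the file headers in broad mode at q 0.05 with linking at 0.1 (H3K4me1, H3K27ac, H3K27me3) or in narrow mode at p 1e-5 (H3K4me2, H3K4me3), although the methods state q 0.05 for all. The headers treat reads as single-end, the methods describe paired ends, and the inputs of replicates 1 and 3 have equal read totals. The deposited pileup is fragment coverage (signal), the deposited scores are a −log10 p-value with its −log10 q-value, and the deposited fold enrichment is a ratio to local input. Pileup depends on depth, duplicate limits and fragment length, and was tested between treatments only relative to the same list. Raw pileups of single genes and regions were not corrected for these and are descriptions only.

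From the lists, the input level under each peak (pseudocount 1), bins of 50 kb called raised at 3 times the rest of chromosome 2, and promoters of 1 kb either side of GENCODE release 44 start sites were computed with python 3.11.15, numpy 2.4.6 and pandas 2.3.3. Raised peaks in the descriptions had at least 10 times the level of the rest of chromosome 2. Exact two-sided permutation tests over 20 assignments were adjusted by Benjamini-Hochberg over the 5 marks. Interval and test functions were tested on simulated data. The rule for named genes took MYCN, MYCNOS, MYCNUT, GACAT3 and protein-coding genes in or within 500 kb of the segment. It then allowed at most 12 others, first by a promoter state of 3 against 0 libraries and then by H3K4me3 pileup. The 6 genes with H3K27me3 in all 6 libraries and LRATD1 were named for their H3K27me3 calls, outside this rule. Named regions were, per mark, those called in most libraries of the segment and the separating regions with the highest weakest −log10 q-value. Of the cell type markers, 1 is not reported here. The window, lists, motifs and tests were chosen with earlier results of these data known. Alternatives were a −log10 q-value of at least 3, numbers per 100000 peaks, 50% overlap, means weighted by peak length, other bins and thresholds, a 2.5 kb promoter, leaving out each library and a replicate block. Raised peaks defined singly and the flanks alone were added after seeing the data.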

Additional observations from a re-analysis of the deposited data

How the results depend on the processing

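No difference between treatments could pass 0.05 by exact permutation with 3 libraries against 3, so stability is given as direction only. Of 240 alternatives over 31 results, 220 kept the direction of a difference or, for a count, lay within 1.5 times it, and for the extent within the spread over libraries. Such differences could still change in size, most of all the relative pileup as a mean weighted by peak length (-2.23 for H3K4me1 and -1.39 for H3K27ac, against -0.12 and -0.16). With peaks of a −log10 q-value of at least 3, the H3K27me3 difference in window number turned from -0.18 to 0.40, and per 100000 peaks of the list to 0.051. In the flanks alone the H3K4me3 relative pileup differed by 0.24 in place of -0.33. Leaving out each library in turn gave window number differences of -0.35 to 0.16 for H3K4me2, -0.22 to 0.0099 for H3K4me3 and -0.48 to 0.33 for H3K27me3, H3K27me3 fold enrichment differences of -0.17 to 0.059, and H3K27me3 numbers in the raised bins of -1.28 to 0.72, so the direction of each rests on single libraries. Those ranges were -0.83 to -0.023 for H3K4me3 and -0.26 to -0.059 for H3K27ac relative pileup, 0.16 to 0.74 for H3K4me3 fold enrichment, and -6.13 to -4.28 for H3K4me1, -2.08 to -0.13 for H3K4me2 and -2.06 to -0.26 for H3K4me3 number in the raised bins. The H3K4me1 number there differed by -3.17 at the stricter q-value (exact permutation p = 0.2). Separating regions of the window fell at the stricter q-value from 74 to 4 for H3K4me1, from 22 to 11 for H3K27ac and from 2 to 0 for H3K27me3. Where peaks had to cover 50% of a region they were 48 for H3K4me1, 1 in place of 0 for H3K4me3, and 0 in place of 2 for H3K27me3. The cause of these changes was not tested.

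In which regions of the window held a peak, libraries with the same replicate number deviated from their groups with correlations of -0.10 to 0.20. That measure does not see a shift of a whole library, so it cannot decide whether the numbers pair the libraries. H3K27ac fragment estimates followed the number, at 232, 278 and 228 bp in DMSO and 229, 273 and 223 bp in doxycycline. Those of H3K27me3 did so in part, at 256, 112 and 105 bp against 265, 280 and 108 bp. The permutation tests above leave any such pairing out. With the number as a replicate block the differences stayed as given, for example -0.50 for H3K4me1 window number and -5.06 in the raised bins (exact sign-flip p = 0.25 for each, the smallest that 8 flips allow), and no call changed.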
